A study of Mus musculus with 4 samples.

Results

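RUNX1 binding was examined at the loci of 9 genes that serve the granules of myeloid cells and the uptake of particles by phagocytes: Mpo, Elane, Prtn3, Ctsg, Lyz2, Cybb, Cd68, Fcgr3 and Tyrobp. They are 9 of the 21938 protein-coding genes of GENCODE release M21 on the assembled mouse chromosomes (build mm10). They were chosen by function, and a ChIP-seq peak was assigned to a gene when its summit, the position of the strongest signal, lay inside the gene body or within 50 kb of it. By this rule 45 of 21831 peaks of the RUNX1 list labelled +DOX and 37 of 18389 peaks of the RUNX1 list labelled -DOX lay at the 9 genes, as did 21 of 6356 and 22 of 7233 peaks of the H3K27me3 libraries.

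All 4 libraries came from mouse embryonic stem cells (ESCs) with the genotype Tet-on dominant-negative FOS, which were cultured for 2 days to floating hematopoietic progenitors (HP cells). Doxycycline (DOX) switches on dnFOS, a peptide that keeps JUN-related proteins off the DNA, so the cells without DOX carry the transgene as well. Chromatin was crosslinked with DSG and formaldehyde. RUNX1 was profiled in 1 library labelled with doxycycline treatment (+DOX) and in 1 labelled without treatment (-DOX). The run name inside each RUNX1 list gives the opposite treatment, so each direction below holds for the labels and turns around if the run names are right. In the H3K27me3 libraries the titles (untreated, DOX) contradict the treatment labels and the protocol names an antibody against RUNX1, so neither was given a condition and the titles serve as their names. With 1 library each, no difference could be set against a replicate, and none was tested. A model made from ESCs in culture need not match progenitors of an animal, and peak lists hold no expression, so the labelled cell type could not be checked against its markers here.

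The proteins stand at successive steps of myeloid maturation. Myeloperoxidase (Mpo), neutrophil elastase (Elane), proteinase 3 (Prtn3) and cathepsin G (Ctsg) are packed into primary granules at the promyelocyte stage, and lysozyme (Lyz2) is made by granulocytes and macrophages. Cybb is the membrane subunit of the phagocyte NADPH oxidase, Cd68 a lysosomal glycoprotein of macrophages, Fcgr3 a low-affinity receptor for IgG, and Tyrobp (DAP12) an adapter that couples surface receptors to the kinase Syk. RUNX1, PU.1 and C/EBP factors are the textbook regulators of this program, and H3K27me3 is the mark that Polycomb complexes place on silent genes.

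The sequences that the results turn on run from 50 bp before to 50 bp after the summit, all on the plus strand of mm10. They lie at the strongest site of each gene with a site of its own, at 2 sites downstream of Ctsg and at the intronic site of Mpo. The others are the distal site of Tyrobp and the other strong one-list site around Fcgr3. A name with start marks a site whose nearest start is that of the gene, not always a site at the start. The summit of the one named for Tyrobp was 948 bp upstream of the 5′ end. That of the one named for Fcgr3 was 185 bp upstream of the GENCODE 5′ end and 5717 bp from the RefSeq start. Capitals mark matches on either strand to the letters searched: TGTGGT and TGTGGTT for RUNX (the first is part of the second, and both read ACCACA and AACCACA on the other strand), GAGGAAGT for PU.1, CCGGAAG or CAGGAAG for ETS factors, TGACTCA for AP-1, TTGCNNAA for C/EBP and AGATAA for GATA.
Mpo start (chr11:87793474-87793574): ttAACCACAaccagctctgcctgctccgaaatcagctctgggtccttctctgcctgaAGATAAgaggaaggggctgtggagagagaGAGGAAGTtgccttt
Mpo intron (chr11:87800440-87800540): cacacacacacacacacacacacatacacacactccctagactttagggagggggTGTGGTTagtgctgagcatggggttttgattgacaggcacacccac
Cd68 start (chr11:69666151-69666251): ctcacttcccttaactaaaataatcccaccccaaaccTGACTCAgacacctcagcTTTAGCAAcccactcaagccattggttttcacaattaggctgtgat
Tyrobp start (chr7:30412762-30412862): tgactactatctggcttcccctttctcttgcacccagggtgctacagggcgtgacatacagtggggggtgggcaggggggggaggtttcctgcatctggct
Tyrobp distal (chr7:30382836-30382936): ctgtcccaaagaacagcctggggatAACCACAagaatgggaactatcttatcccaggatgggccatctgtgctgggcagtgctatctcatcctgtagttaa
Ctsg side, at Mcpt8 (chr14:56085294-56085394): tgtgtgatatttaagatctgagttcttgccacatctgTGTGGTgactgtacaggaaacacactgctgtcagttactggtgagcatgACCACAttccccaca
Ctsg side, nearest to Ctsg (chr14:56092982-56093082): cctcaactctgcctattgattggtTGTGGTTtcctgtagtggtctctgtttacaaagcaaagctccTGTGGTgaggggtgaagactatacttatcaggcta
Fcgr3 start (chr1:171065070-171065170): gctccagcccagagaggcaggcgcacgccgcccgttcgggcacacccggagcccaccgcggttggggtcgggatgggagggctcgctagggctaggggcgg
Fcgr3 upstream copy (chr1:171080029-171080129): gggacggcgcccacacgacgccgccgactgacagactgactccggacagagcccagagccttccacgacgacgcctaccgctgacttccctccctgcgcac

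For the 5 genes without a RUNX1 site of their own, the bases from 150 to 50 before the start in NCBI RefSeq (build GRCm38.p6) show which of these letters the promoter carries where no RUNX1 peak was called. They are written in the direction of transcription.
Upstream of Elane (chr10:79886162-79886262, plus strand): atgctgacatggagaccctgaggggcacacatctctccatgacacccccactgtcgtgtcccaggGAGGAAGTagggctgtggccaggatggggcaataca
Upstream of Prtn3 (chr10:79879517-79879617, plus strand): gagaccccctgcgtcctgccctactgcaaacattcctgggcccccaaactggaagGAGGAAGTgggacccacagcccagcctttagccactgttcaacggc
Upstream of Ctsg (chr14:56102624-56102724, minus strand): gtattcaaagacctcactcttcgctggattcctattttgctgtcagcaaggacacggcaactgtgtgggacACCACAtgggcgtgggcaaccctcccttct
Upstream of Lyz2 (chr10:117282322-117282422, minus strand): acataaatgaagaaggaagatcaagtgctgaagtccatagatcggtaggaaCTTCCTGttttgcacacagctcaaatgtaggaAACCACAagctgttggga
Upstream of Cybb (chrX:9469374-9469474, minus strand): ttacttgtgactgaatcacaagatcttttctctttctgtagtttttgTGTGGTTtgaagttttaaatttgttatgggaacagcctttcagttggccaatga

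Summits of both RUNX1 lists, widened by 200 bp on either side, merged into 24972 sites, and 50 of these lay at the 9 genes. RUNX1 sites were present around 7 of the 9 genes, against 78% of all protein-coding genes. Each of the 7 had at least 1 site called in both lists, for which no share of all genes is given. The start of the gene itself was the nearest annotated transcription start of a RUNX1 site within 50 kb in 4 of 9 (Mpo, Cd68, Fcgr3 and Tyrobp), against 51.7% of all protein-coding genes. Lyz2 and Cybb had no peak of any of the 4 lists in the window, which held for 17.8% of all protein-coding genes. These are counts over 9 genes, and no test was made.

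Of the 50 sites, 27 (54%) were called in both lists, 15 (30%) only in the +DOX-labelled list and 8 (16%) only in the -DOX-labelled list. Over all 24972 sites the shares were 56.8%, 28.4% and 14.8%. Among the 27 sites in both lists, 15 ranked higher in the +DOX-labelled list (55.6%, against 58% of all sites in both lists). The rank used throughout is the percentile of -log10 q within the own list, which is the share of that list's peaks at or below the value, because the depth of the libraries is unknown and raw values are not comparable between them. The difference in percentile, +DOX minus -DOX, had a median of 4.90 and ran from -35.1 to 36.3, against a median of 1.83 over all sites in both lists. The lists differ in length (21831 and 18389 peaks), and the part of this in the percentile differences was not tested. The classes at these genes were thus close to their shares in the whole lists, and single sites moved in both directions. The excess of one-list sites labelled +DOX did not hold under 2 stricter settings. With the 15000 strongest peaks of each list, 5 sites were only in the +DOX-labelled list and 8 only in the -DOX-labelled list (13.9% and 22.2%, against 21% and 20.6% of all sites). When both lists were first reduced to peaks with a -log10 q of at least 10, the counts were 6 and 7 of 23 sites (26.1% and 30.4%, against 30% and 13.3%). In both settings a site also counted as in 1 list when its peak in the other list fell below the cut. The cut at 15000 took more peaks from the longer list, so these settings do not show which sites are in 1 list only.

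**Figure D1:**
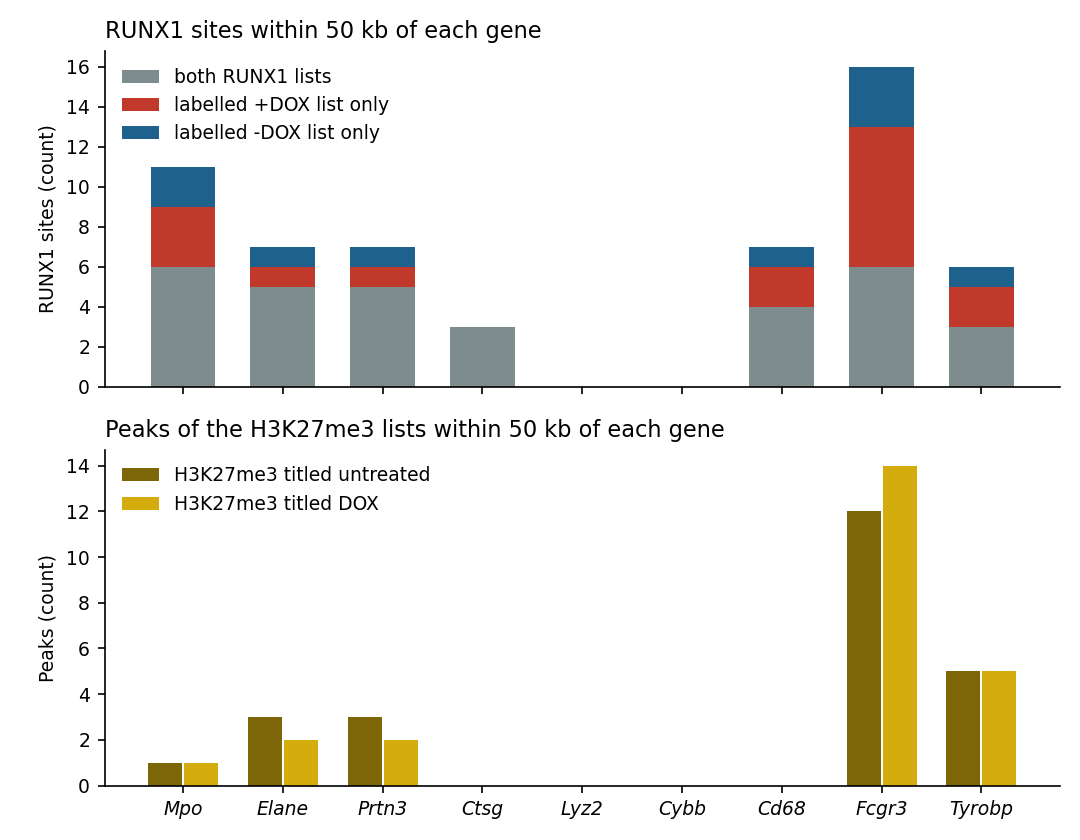
RUNX1 sites (upper bars, stacked by the lists that called them) and peaks of the 2 H3K27me3 lists (lower bars) in or within 50 kb of each of the 9 genes, as counts. Fcgr3 (16 sites) and Mpo (11) have the most sites, Lyz2 and Cybb have none, and the 7 sites of Elane and of Prtn3 are the same.

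Mpo had 11 RUNX1 sites (6 in both lists, 3 only in the +DOX-labelled list and 2 only in the -DOX-labelled list). As many or fewer sites were found for 98.8% of protein-coding genes, whose median was 3. The Mpo gene is on the plus strand (chr11:87793581-87804413). The site at its start had its strongest summit 57 bp upstream of the GENCODE 5′ end, outside any exon, and 260 bp from the RefSeq start. Its fold enrichment over the local background was 6.02 in the +DOX-labelled list and 6.10 in the -DOX-labelled list, and its -log10 q was 11.2 and 11.6. In percentiles it stood at 61.8 and 65.1, so the start of Mpo ranked above the middle of both lists and nearly alike. The sequence shown carries the long RUNX consensus 45 bp from the summit, the PU.1 consensus 40 bp and the GATA consensus 10 bp from it, and no AP-1 consensus.

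A weak site 3447 bp upstream of Mpo was called in both lists (percentiles 3.59 and 5.22). Inside the gene, 6909 bp past the 5′ end and in introns of both Mpo and Gm11505, a site was called only in the +DOX-labelled list, with a fold of 5.17, a -log10 q of 7.36 and a percentile of 42.4. The middle of its TGTGGTT is 8 bp from the summit. The remaining sites belonged to neighbours. The strongest lay 5 bp from the start of Mks1, a gene of ciliary assembly, 59.6 kb from the 5′ end of Mpo (percentiles 96.4 and 88.2). Around Mir142hg, the host gene of the blood microRNA miR-142, a site 43.9 kb upstream of Mpo stood at 83.2 in the +DOX-labelled list and at 47.5 in the -DOX-labelled list. It carries the AP-1 consensus. At an annotated start of Tspoap1 a site in both lists stood at 76.0 and 58.2, but at percentiles of only 5.07 and 1.80 by fold enrichment. It was flanked by 3 one-list sites nearest to the same gene (2 labelled +DOX and 1 labelled -DOX) with -log10 q percentiles between 11.1 and 38.5. The peak of the -DOX-labelled one overlapped a peak of the other list.

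Elane and Prtn3 lie next to each other on the plus strand of chromosome 10 (chr10:79886247-79888215 and chr10:79874476-79883174), and their windows held the same 7 RUNX1 sites (5 in both lists, 1 in each list alone). None had Elane or Prtn3 as its nearest start, and none lay between or inside them. The closest summit was 8943 bp from the GENCODE 5′ end of Prtn3 and 20.7 kb from that of Elane, in a coding exon of Plppr3 (site percentiles 67.0 and 39.8). The highest percentile belonged to a site 38 bp from the start of Med16, a Mediator subunit, at 75.6 in the +DOX-labelled list and 87.2 in the -DOX-labelled list. A site at Ptbp1 and E130317F20Rik stood at 87.0 and 78.7, and a site in an exon of R3hdm4 with the long RUNX consensus at 85.7 and 80.7. The start of Arid3a had the widest gap among them, 37.4 against 69.9. So RUNX1 sites of high rank flanked the pair of protease genes at their neighbours, with none at the proteases. The RefSeq promoters of Mpo, Elane and Prtn3 each carry GAGGAAGT, which 3.2% of 32851 RefSeq promoters of the same length carry. Those of Ctsg, Lyz2, Cybb, Cd68 and Fcgr3 do not carry it, and no test was made.

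Ctsg, on the minus strand of chromosome 14 (chr14:56099881-56102574), had 3 RUNX1 sites, all in both lists and all downstream of the gene among the mast cell protease genes. The site closest to it lay 9542 bp from its 5′ end and stood at percentile 47.3 in the +DOX-labelled list (fold 5.57) and 76.3 in the -DOX-labelled list (fold 7.83). The strongest, 71 bp from the start of Mcpt8, a basophil protease, ranked the other way round, at 89.0 and 68.8 (folds 10.6 and 6.92). The farthest, 4351 bp from the start of Mcpt4, stood at 35.9 and 2.85. All 3 carry TGTGGT, and the sites at Mcpt8 and nearest to Ctsg carry it at 2 places each. The RefSeq promoter of Ctsg carries it 79 bases before the start, in a window with no peak.

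Lyz2 (chr10:117277331-117282321, minus strand) and Cybb (chrX:9435252-9487771, minus strand) lay outside the reach of every list. The RUNX1 summit closest to the start of Lyz2 was 94.7 kb away in the -DOX-labelled list and 94.8 kb away in the +DOX-labelled list, at percentiles 58.7 and 65.8. For Cybb the closest summits lay 178.6 kb (labelled -DOX) and 178.9 kb (labelled +DOX) from a start. No H3K27me3 summit was within 267.1 kb of Lyz2 or 542.2 kb of Cybb. Both promoters carry TGTGGTT, 67 bases before the RefSeq start of Lyz2 and 103 bases before that of Cybb. The long consensus is in 5.27% of RefSeq promoters and TGTGGT in 16.8%. The RefSeq start of Cybb lies 18447 bp inside its GENCODE gene, and neither end had a peak near it.

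**Figure D2:**
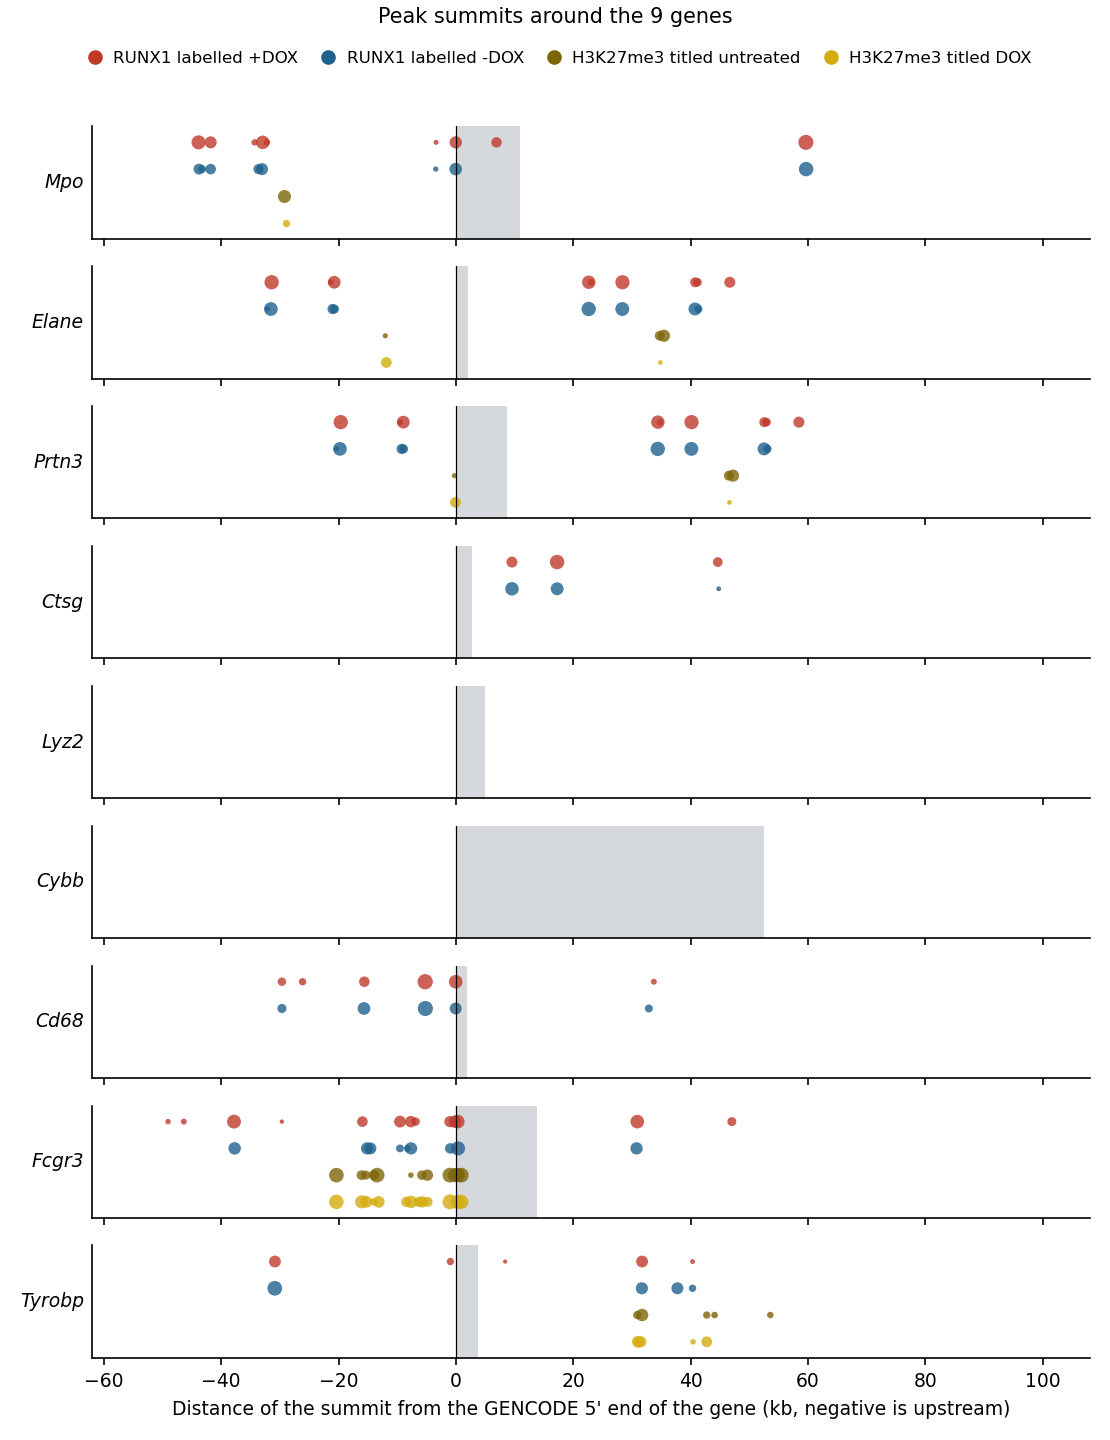
Distance in kb of every peak summit from the GENCODE 5′ end of each gene, with negative values upstream, 1 panel per gene and 1 line of points per list. Larger points have a higher -log10 q percentile, and grey spans are gene bodies. Summits of the RUNX1 lists sit at the starts of Mpo, Cd68 and Fcgr3, while Elane, Prtn3 and Ctsg have them only at a distance.

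Cd68 (chr11:69664213-69666153, minus strand) had 7 RUNX1 sites, 4 in both lists, 2 only in the +DOX-labelled list and 1 only in the -DOX-labelled list. The site at its start lay 48 bp upstream of the GENCODE 5′ end and 31 bp from the RefSeq start, with summits 5 bp apart in the 2 lists. It stood at 77.6 in the +DOX-labelled list (-log10 q of 17.1) and at 58.0 in the -DOX-labelled list (9.79). Its fold enrichment was lower in rank, 4.48 and 3.81 or percentiles 32.6 and 16.1, over wide peaks of 1240 and 1077 bp. The sequence shown holds the AP-1 consensus 10 bp and the C/EBP consensus 9 bp from the summit and no RUNX consensus. Of the 50 sites, 3 (6%) carry AP-1 within the 200 bp at the summit, against 4.97% of all sites. The strongest site at any of the 9 genes lay 5247 bp upstream of Cd68, 50 bp from the start of Eif4a1, a translation initiation factor, with percentiles of 99.4 and 97.7. The start of Senp3, a SUMO protease, stood at 43.2 and 66.9. The 3 sites in 1 list ranked between 8.42 and 21.3.

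Tyrobp (chr7:30413760-30417585, plus strand) had 6 RUNX1 sites, 3 in both lists, 2 only in the +DOX-labelled list and 1 only in the -DOX-labelled list. A site of its own lay 948 bp upstream and was called only in the +DOX-labelled list, with a fold of 4.11, a -log10 q of 4.53 and a percentile of 17.2, a low rank. No RUNX1 summit of the -DOX-labelled list came closer to a start of Tyrobp than 30.9 kb. That summit is the distal site near Lrfn3, which was in both lists, at 56.6 in the +DOX-labelled list (fold 6.13) and at 91.7 in the -DOX-labelled list (fold 11.2). The difference of -35.1 percentiles was the lowest among the 27 sites in both lists. It carries TGTGGTT 22 bp from the summit. Another site lay 269 bp from the start of Nfkbid and only in the +DOX-labelled list, at percentile 0.270, the lowest of all.

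**Figure D3:**
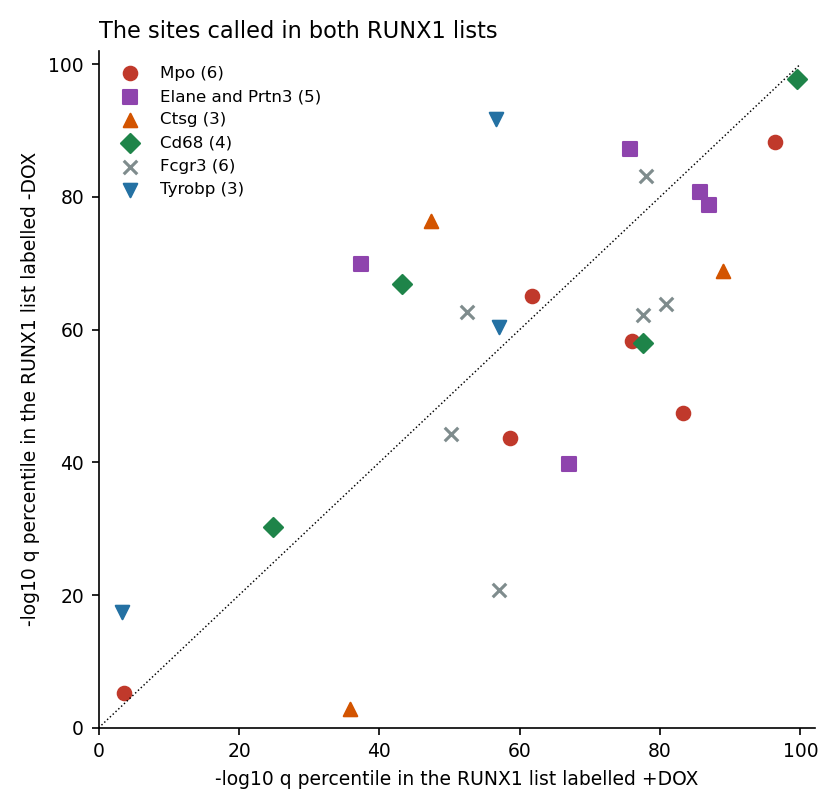
The -log10 q percentile of the 27 sites called in both RUNX1 lists, labelled +DOX on the horizontal and labelled -DOX on the vertical axis, by gene, with the number of sites in brackets. The dotted line marks equal ranks. Points lie on both sides of it, from the distal Tyrobp site (56.6 and 91.7) to a site around Fcgr3 (57.1 and 20.8).

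Fcgr3 (chr1:171051174-171064935, minus strand) had 16 RUNX1 sites, more than any other of the 9 genes, and 99.8% of protein-coding genes had as many or fewer. Of these, 6 were in both lists, 7 only in the +DOX-labelled list and 3 only in the -DOX-labelled list. The window holds 25 of the 403 tRNA genes that RefSeq annotates on the chromosomes. At 11 of the 16 sites a tRNA gene overlapped the site, against 0.316% of all sites, or 79, in the whole series. No site at the other 8 genes overlapped one. Without the 11, 39 sites remained, 21 in both lists, 13 only in the +DOX-labelled list and 5 only in the -DOX-labelled list. Over all 24972 sites the shares of these classes were 56.8%, 28.4% and 14.8%.

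The region is also repeated. A search of the genome found 2 near-identical copies for each of 9 sites around Fcgr3, at 97.55% to 100% identity over 393 to 408 bp, and all of them lay in the same window. Reads of 1 copy can be placed on another, and how such reads were handled is not given in the sources used here, so the counts of these 9 sites are uncertain. The 3 sites of the copy at the GENCODE 5′ end of Fcgr3 were called in both lists, only in the +DOX-labelled list, and in both lists. The 3 of the next copy were called only in the +DOX-labelled list, in both lists, and only in the -DOX-labelled list. The 3 of the last were called only in the -DOX-labelled list for 2 and only in the +DOX-labelled list for 1. The one-list site of the copy at the 5′ end and the +DOX-labelled site of the last copy had peaks that overlapped a peak of the other list. So did 1 of the 2 -DOX-labelled sites of the last copy. The sites of the copies did not match one to one, and the copies of the site 1036 bp upstream held no RUNX1 summit. Where a copy did hold the summit of another site, the class could differ. The -DOX-labelled site 14577 bp upstream has a copy at 100% identity with the summit of the +DOX-labelled site 6871 bp upstream. The class of a site rests on where the summits lay.

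The sites nearest to the start of Fcgr3 were 2. The one 185 bp upstream was called in the +DOX-labelled list alone, with a fold of 3.89, a -log10 q of 11.2 and a percentile of 61.9, and its peak overlapped a peak of the other list whose summit lay elsewhere. The one 1036 bp upstream was in both lists, at 50.2 and 44.2. A site 353 bp inside the gene, whose nearest start is that of the microRNA gene Mir6546, had the highest rank in the -DOX-labelled list (83.2, and 77.9 in the +DOX-labelled list). The strongest site called in 1 list only on the other side, in the -DOX-labelled list, was in the copy 15.1 kb upstream, with a fold of 3.93, a -log10 q of 10.5 and a percentile of 61.3, and its peak also overlapped a peak of the other list. With the lists taken whole, these were the 2 sites in 1 list only with a -log10 q of at least 10 at the 9 genes. The start in RefSeq lies 5532 bp inside the GENCODE gene, and its promoter overlapped no peak.

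Fold enrichment and -log10 q ranked these sites differently. The peaks of the 11 sites at tRNA genes had a median fold percentile of 12.8 and a median -log10 q percentile of 57.9, and 13 of 17 peaks ranked higher by -log10 q. The peaks of the other 39 sites had medians of 31.0 and 52.4, and 30 of 60 ranked higher by -log10 q. In the whole lists 8388 of 21831 peaks (labelled +DOX) and 7097 of 18389 (labelled -DOX) did. Sites without a tRNA gene varied by locus. Around Elane and Prtn3, 8 of 9 peaks (labelled +DOX) and 8 of 8 (labelled -DOX) ranked higher by -log10 q, and around Ctsg and Tyrobp 0 did in either list. RUNX letters (TGTGGT) were found at 4 of the 11 sites at tRNA genes, C/EBP letters at 1, and PU.1, ETS, AP-1 or GATA letters at 0.

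**Figure D4:**
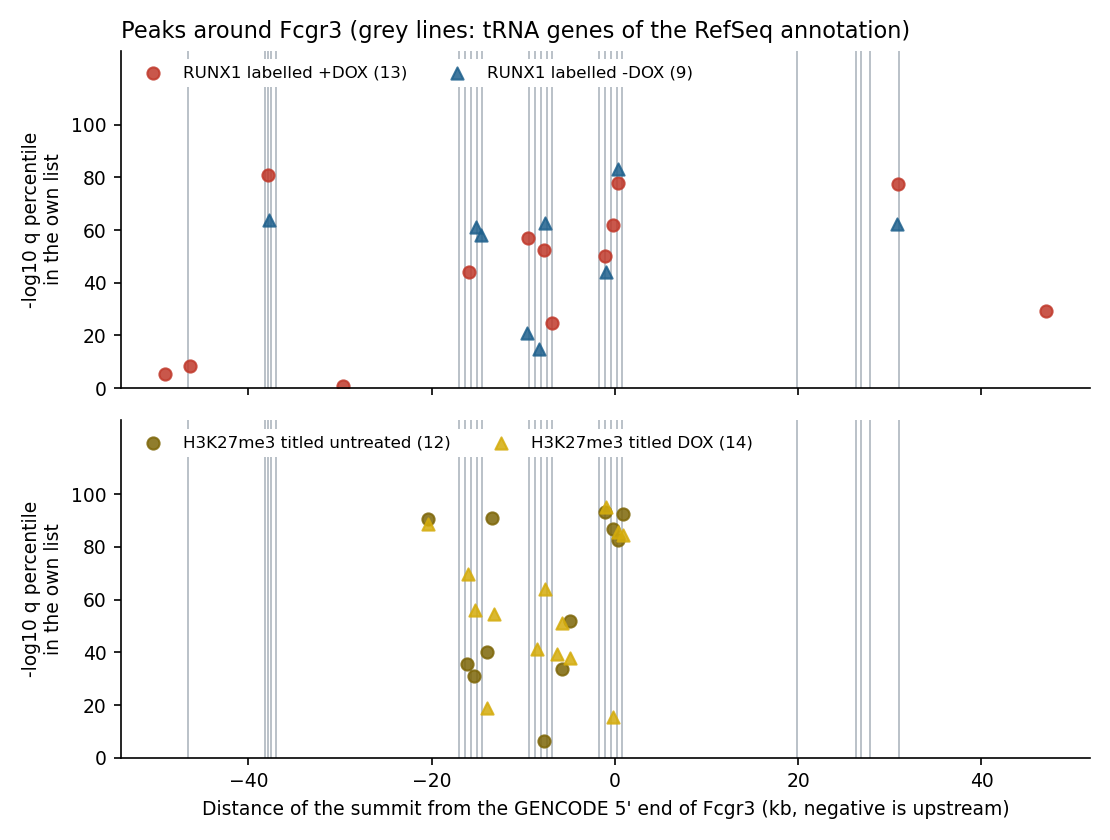
The -log10 q percentile in the own list of every peak around Fcgr3 against the distance of its summit from the GENCODE 5′ end in kb, for the RUNX1 lists (upper panel) and the H3K27me3 lists (lower panel), with grey lines at the 25 tRNA genes of RefSeq. Many RUNX1 summits gather at 3 repeated groups of tRNA genes within 20 kb of the 5′ end, and H3K27me3 summits lie at these groups and between them, with 3 of 12 (titled untreated) and 5 of 14 (titled DOX) within 200 bp of a tRNA gene.

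H3K27me3 peaks lay in the windows of 5 of the 9 genes in the library titled untreated, against 33.2% of protein-coding genes, and of 5 of 9 in the library titled DOX, against 35.3%. They were the same genes in both: Mpo, Elane, Prtn3, Fcgr3 and Tyrobp. Elane and Prtn3 held the same peaks (3 titled untreated and 2 titled DOX), so they are not separate in these counts. Ctsg and Cd68 had RUNX1 sites and no H3K27me3 peak. For Mpo the only peak of each list was 431 bp (titled untreated) or 168 bp (titled DOX) from another annotated start of Tspoap1, 29.3 and 29.0 kb upstream of Mpo and 2939 and 3202 bp from the nearest RUNX1 summit. It stood at percentile 71.2 in the library titled untreated and 17.0 in the library titled DOX. At the pair Elane and Prtn3 the closest summits lay 272 bp (percentile 4.44, titled untreated) and 94 bp (percentile 45.7, titled DOX) from the GENCODE 5′ end of Prtn3, and 20 and 7 bp from the nearest annotated start of Plppr3, not the same one for both. The RefSeq start of Prtn3 lies 5191 bp from its GENCODE 5′ end. No promoter of the 9 genes in RefSeq overlapped an H3K27me3 peak among those with an entry. For Tyrobp all 5 peaks of each list lay between 30721 and 53564 bp downstream of the 5′ end, nearest to Aplp1, Kirrel2 or Nphs1os.

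Fcgr3 held 12 of the 21 peaks titled untreated and 14 of the 22 titled DOX. The peaks of these libraries are narrow calls, with median widths of 180 bp (titled untreated) and 122 bp (titled DOX) over the whole lists. Whether neighbouring calls are parts of 1 wider region was not tested. Of the peaks around Fcgr3, 4 summits titled untreated and 4 titled DOX lay within 50 bp of a RUNX1 summit. The summit 1029 bp upstream (titled untreated, percentile 93.3) and that 1011 bp upstream (titled DOX, percentile 95.1) were 7 and 25 bp from a RUNX1 summit. Within 200 bp of a tRNA gene there were 3 summits in the whole list titled untreated and 5 in the whole list titled DOX, and all of them were around Fcgr3. RUNX1 peaks overlapped an H3K27me3 peak of at least 1 list at 8 of the 50 sites (16%), against 7.62% of all sites. Of the 8, 6 were around Fcgr3 and 2 at Aplp1 and Kirrel2 near Tyrobp. Without the Fcgr3 window the count was 2 of 34 (5.88%). The part of repeated sequence, tRNA genes and the contradictory antibody records in this overlap was not tested.

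Over all 50 sites, the letters searched within 200 bp at the summit were about as frequent as over all sites for RUNX (TGTGGT, 28% against 29%), for TGTGGTT (16% against 14.2%), for PU.1 (4% against 4.66%) and for GATA (10% against 11.7%). ETS letters were at 12% of the 50 sites, against 21.3%, and C/EBP letters at 14%, or 7 sites, against 6.46%. These counts were small and no test was made of them. The PU.1 letters were at the start of Mpo and at a site in an intron of Arid3a, which was called only in the +DOX-labelled list. The C/EBP letters were at the starts of Cd68, Eif4a1 and Mks1, at the site upstream of Tyrobp, at a site in an exon of Tspoap1 and at 2 sites around Fcgr3.

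Other genes of the same systems were read in 4 lists of 35 genes in all. A RUNX1 site lay at 31 of the 35 (78% of all protein-coding genes). A site in both lists lay at 27, for which no share of all genes is given. At 19 a site within 50 kb was nearest to their own start (51.7% of all). H3K27me3 peaks lay at 10 in each list (33.2% and 35.3% of all), and Lyz1, S100a8, S100a9 and Msr1 had no peak of any list. By list, 6 of 18 granule genes, 4 of 5 subunits of the phagocyte oxidase, 4 of 6 Fc receptor and adapter genes and 5 of 6 lysosome and scavenger genes had a site nearest to their own start. At 11 of these 19 genes the own site of highest rank was in both lists. It ranked higher in the +DOX-labelled list at 9 and lower at 2. (Of all sites in both lists 58% ranked higher, but that share has no pick of 1 site per gene, so the sets are unlike.) The 2 that ranked lower were Fcnb, a ficolin (11.2 in the +DOX-labelled list and 49.1 in the -DOX-labelled list), and Cst7, a cystatin (43.8 and 49.5). Among the others, Mmp9, a granule gelatinase, stood at 96.3 in the +DOX-labelled list and 77.4 in the -DOX-labelled list. Srgn, the proteoglycan core of granules, stood at 79.2 and 48.1. Ncf4, a cytosolic subunit of the oxidase, stood at 82.9 and 52.4, and Cyba, the partner of Cybb in the membrane, at 54.5 and 3.27. The lysosomal protease Ctsb stood at 98.0 and 97.8. Fcer1g, the signaling chain that Fcgr3 pairs with, stood at 74.8 and 57.6, and Syk, the kinase below Tyrobp, at 73.0 and 70.4. Of the 19 genes, 13 had a site of their own in both lists, 12 had one only in the +DOX-labelled list and 1 had one only in the -DOX-labelled list, and a gene can count in more than 1 of these. Over the 11342 protein-coding genes with such a site the shares were 75.1%, 34.5% and 20.4%, and no test was made. Cfd, Epx, Fcgr2b, Fcgr4 and Hcst neighbour the 9 genes and share sites with them, so their counts are not separate. The empty windows of Lyz1 and Lyz2 overlap, as do those of S100a8 and S100a9, so these are not separate either.

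At the limit of 50 kb, the farthest peaks of the +DOX-labelled list inside were 49737 bp from Prtn3 (percentile 48.2), 49069 bp from Fcgr3 (5.41) and 48797 bp from Mpo (96.4). In the -DOX-labelled list they were 44383 bp (22.3), 37716 bp (63.8) and 48834 bp (88.2) from the same genes. The nearest outside in the +DOX-labelled list were at 57.8, 52.9 and 56.0 kb (percentiles 86.3, 35.9 and 42.6).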

How the data were processed

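Peak lists of 4 ChIP-seq libraries were used, deposited by the authors in MACS format and aligned to mm10. The submitters' processing notes name Bowtie2 2.2.9 and MACS2 2.1.1, and the study's methods add removal of duplicates and a q-value threshold of 0.05. The values deposited by the authors are a ratio (fold enrichment over local background) and −log10 values of p and q for every peak. No tag counts were used, so depth is unknown and no interval could be given; values were read as percentiles within a list. Filters against blacklisted and repeated regions were not compared with the lists.

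Only peaks on assembled chromosomes were read, with Python 3.11.15 and numpy 2.4.6. RUNX1 summits were extended by 200 bp, merged where they touched, and classed by the lists with a summit in the site. A site was under an H3K27me3 peak when its peak overlapped it by at least 1 bp. Nearest starts came from GENCODE M21, and promoters (300 bases, 8 of the 9 genes) and tRNA genes from RefSeq. Near-identical copies were searched with BLAST 2.17.0 (at least 95% identity over 100 bp). Classing, nearest starts and motif search were tested on simulated data. With 1 library per condition, no test was possible.

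The 9 genes and the 4 lists were chosen with earlier results of these data known. Named sites were, per gene, the site with the highest percentile nearest to it (otherwise in its window) and one-list sites with a −log10 q of at least 10. Other sites and genes named were chosen after their values were seen. The sequence at the Med16 site, which the rule names, lies in an exon and is not shown.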

Additional observations from a re-analysis of the deposited data

How the results depend on the processing

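With peaks of −log10 q of at least 5, there were 8 sites only in the +DOX-labelled list, 4 only in the -DOX-labelled list and 12 peaks titled DOX. Shares over all sites are not given for this setting. With both lists reduced to peaks of 10 or more, 23 sites remained in all, 6 of them only labelled +DOX and 7 only labelled -DOX, and 3 had a member of the 9 genes nearest. With the 15000 strongest peaks of each RUNX1 list, 5 sites were only in the +DOX-labelled list and 8 only in the -DOX-labelled list, so the larger class changed in both settings. Within 10 kb there were 16 sites (5 only labelled +DOX and 1 only labelled -DOX) and 8 and 10 H3K27me3 peaks. Within 100 kb there were 76 sites, 15 of them only labelled -DOX. Over all sites 28.4% were only labelled +DOX and 14.8% only labelled -DOX. Counting protein-coding starts alone, 15 sites had 1 of the 9 genes nearest. With the RUNX1 libraries exchanged, the one-list counts became 8 and 15. Without the Fcgr3 window, an alternative added after seeing the data, one-list sites numbered 8 and 5 of 34 (23.5% and 14.7%), and H3K27me3 peaks 9 and 8. The other alternatives stayed within 1.5 times the counts reported. No paired analysis was possible because there was 1 library per condition. Depth limits which weak sites were called.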
